A study of Mus musculus with 43 samples.

Results

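The proteasome genes were taken as every protein-coding gene of the GENCODE vM21 mouse annotation whose symbol starts with Psma, Psmb, Psmc, Psmd, Psme, Psmf or Psmg and a number, with Psmc3ip left out. The rule found 49 of 21951 protein-coding genes, and all 49 were present in the expression tables. They comprise 7 genes of the alpha ring, 4 non-catalytic and 3 constitutive catalytic genes of the beta ring, 3 immune catalytic genes, the testis gene Psma8, the thymus gene Psmb11, 6 ATPases, 3 other genes of the base, 8 genes of the lid, 7 assembly chaperones, 5 activator genes and 1 inhibitor gene.

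The series asked what the arginine methyltransferase Prmt1 does in mouse male germ cells. Prmt1-dKO mice carried floxed Prmt1 alleles (Prmt1 lox/lox) and Ddx4-CreERT2, a tamoxifen-inducible Cre with a green fluorescent tag driven by the germ cell promoter Ddx4, and received tamoxifen before collection at postnatal day 7 (P7). Whole testis RNA at P7 was sequenced as bulk RNA-seq (3 WT and 3 Prmt1-dKO libraries), and spermatogonia sorted at P7 for the fluorescent tag were sequenced by a low-input Smart-seq2 protocol (2 WT and 2 Prmt1-dKO libraries). The labels call the sorted controls WT, while the study's methods describe the sorted controls as heterozygous Prmt1 +/lox mice that carried the Cre. CUT&Tag, which maps a histone mark by antibody-directed DNA cutting, gave 33 peak lists for 7 marks from cells of the tubules: 15 lists from WT mice at P7, 16 from WT mice at P14 and 2 from Prmt1-dKO mice at P7 (H4R3me2s only). At P14 the cell type label is spermatocyte while the sample titles name spermatogonia, so a difference in cell makeup cannot be told apart from age. The cell type label of the whole testis libraries is also spermatogonia. The labels do not say whether replicates of a group came from separate animals, so p-values measure the spread between these libraries, which may be technical.

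The libraries held 12396317 to 18547078 expected counts. Genes with a count numbered 17106 and 15587 in the sorted WT libraries and 21404 and 20194 in the sorted dKO libraries, against 22341 to 22555 in WT and 24052 to 24487 in dKO testis. The targeted gene, Prmt1, was lower in dKO testis, at 146, 199 and 158 CPM (scaled counts relative to library size) against 237, 219 and 247 in WT, a log2 fold change of -0.49 ± 0.13 (SE; edgeR, false discovery rate (FDR) 0.0334). In sorted spermatogonia Prmt1 was at 112 and 86.5 CPM in dKO against 216 and 149 in WT, a log2 fold change of -0.88 ± 0.26 that missed the threshold (FDR 0.133). These counts cover the whole gene, including exons outside the floxed part, so transcripts that lack the floxed part can still be counted. The 2 sorted dKO libraries stood apart from the 2 sorted WT libraries in some markers of other cells. Sertoli markers (8 genes) did not separate them, with summed TPM of 177 and 148 in WT and 146 and 225 in dKO. Leydig markers (6 genes) overlapped too, at 6.97 and 0.12 in WT and 4.74 and 8.13 in dKO. Peritubular markers (4 genes) were lower in dKO, at 3.18 and 3.45 against 7.95 and 4.61 in WT. The summed TPM of 10 leukocyte markers was 0.19 and 0.0 in WT and 53.5 and 74.5 in dKO, and the germ cell markers (8 genes) summed to 2839 and 2966 in WT and 2380 and 2324 in dKO. Of the latter, Tex101 was at 1576 and 1591 TPM in WT and 651 and 628 TPM in dKO, while the median log2 fold change of the 8 genes was 0.62 and 0 of them passed by edgeR.

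The proteasome degrades proteins tagged with ubiquitin. Its core particle is a stack of alpha rings and beta rings, and Psmb5, Psmb6 and Psmb7 carry the proteolytic sites of the constitutive form. In cells exposed to interferon, Psmb8, Psmb9 and Psmb10 can take their places and form the immunoproteasome, which favours peptides for MHC class I. The regulatory particle caps the core. Its base holds the ATPases Psmc1 to Psmc6, which unfold substrates, and its lid holds the deubiquitinase Psmd14. Psma8 replaces Psma7 in germ cells and is needed for meiosis, and Psme4 (PA200) is an activator of the core known from spermatids.

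The promoter windows below show which sequence elements flank the start sites of genes described in the results. They run from 250 bases before to 50 bases after a start in the RefSeq table (build GRCm38.p6), which held 41 of the 49 genes. Each is written 5′ to 3′ on the strand of its gene, and capitals mark a match, on either strand, to 1 of 3 motifs. The motifs were TGACNNNGC (the antioxidant response element core bound by Nfe2l1 and Nfe2l2, which drive proteasome genes when the proteasome is inhibited), CCAAT, and the core of the interferon-stimulated response element (GAAA, 2 free bases and GAAA). Psmb5 (chr14:54617946-54618245, minus strand) and Psmb6 (chr11:70525107-70525406, plus strand) are shown because each holds the antioxidant response element core. Psmb9 (chr17:34187281-34187580, minus strand) holds a CCAAT box in reverse, and Psme1 (chr14:55578244-55578543, plus strand) holds the interferon-stimulated response element core in reverse after its start.
Psmb5: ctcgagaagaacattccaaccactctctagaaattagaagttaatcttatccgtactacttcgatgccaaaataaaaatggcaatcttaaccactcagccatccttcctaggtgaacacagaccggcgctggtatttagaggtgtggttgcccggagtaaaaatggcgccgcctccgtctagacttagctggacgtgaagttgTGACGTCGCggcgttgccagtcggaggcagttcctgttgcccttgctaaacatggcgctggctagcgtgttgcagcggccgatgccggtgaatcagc
Psmb6: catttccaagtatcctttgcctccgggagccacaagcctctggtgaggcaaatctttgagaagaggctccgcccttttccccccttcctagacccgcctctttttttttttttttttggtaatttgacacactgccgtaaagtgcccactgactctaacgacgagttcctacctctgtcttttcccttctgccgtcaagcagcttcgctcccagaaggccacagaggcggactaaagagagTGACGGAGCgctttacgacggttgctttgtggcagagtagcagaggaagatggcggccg
Psmb9: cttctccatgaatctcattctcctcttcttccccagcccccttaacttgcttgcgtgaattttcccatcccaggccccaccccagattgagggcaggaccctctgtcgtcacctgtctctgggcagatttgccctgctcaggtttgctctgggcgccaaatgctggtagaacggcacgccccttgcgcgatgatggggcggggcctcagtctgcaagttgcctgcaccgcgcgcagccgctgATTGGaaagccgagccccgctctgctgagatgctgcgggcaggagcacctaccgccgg
Psme1: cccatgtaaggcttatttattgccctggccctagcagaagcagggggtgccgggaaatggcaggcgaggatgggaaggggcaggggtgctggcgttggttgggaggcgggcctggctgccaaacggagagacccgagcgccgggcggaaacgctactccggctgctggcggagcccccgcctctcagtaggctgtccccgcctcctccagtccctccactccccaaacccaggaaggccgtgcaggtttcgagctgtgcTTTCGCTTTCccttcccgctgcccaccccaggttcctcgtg

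The antioxidant response element core was found in 6 of the 41 genes (14.6%; Psmb5, Psmb6, Psmc6, Psmd9, Psmd12 and Psme4), beside 14.0% of the 27025 genes in the table. CCAAT was found in 14 of 41 (34.1%), beside 41.1% of all genes. The interferon-stimulated response element core was found in 5 of 41 (12.2%; Psmb3, Psmd4, Psmd9, Psme1 and Psmg4), beside 3.99% of all genes. Of the immune catalytic genes, Psmb8, Psmb9 and Psmb10 held neither response element in these windows. A match is a description of these letters only. The median GC content was 57.3% over the 44 windows of proteasome genes and 52.7% over all 32851 windows. In the GENCODE annotation, 13 of the 49 genes (26.5%) had a protein-coding start on the opposite strand within 1000 bp, beside 12.3% of all protein-coding genes. Psmb9 and the peptide transporter gene Tap1 started 30 bp apart, and Psmc2 and Dnajc2 started 32 bp apart, so a promoter peak there belongs to both genes of a pair.

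Proteasome genes were among the abundant transcripts in both preparations. TPM, the share of a library's transcripts after division by transcript length, is per length, so levels can be set side by side between genes. In WT testis the median proteasome gene was at 138.5 TPM, beside 5.96 TPM for all protein-coding genes, and 28 of 49 reached 100 TPM, beside 7.68% of all. In WT sorted spermatogonia the median was 208.5 TPM, beside 2.1 TPM, and 36 of 49 reached 100 TPM, beside 8.54%. Their summed TPM made up 0.734% to 0.762% of all transcripts in WT testis and 1.21% to 1.28% in WT sorted spermatogonia. Among the 46 genes with at least 1 TPM in both, 37 were higher in sorted spermatogonia, with a median log2 ratio of 0.70, beside -0.11 for 11192 protein-coding genes. The preparations used different library protocols, so this is set side by side with no test. The order of the 49 genes was similar in both (Spearman's rho 0.82 across genes, which are not independent replicates and share each library's depth). Psmd11, a lid scaffold, and Psmg1, an assembly chaperone, had high ratios of 5.31-fold and 3.87-fold, whereas Psme1 was 2.07-fold higher in testis. These 3 genes were chosen after their values were seen.

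**Figure D1:**
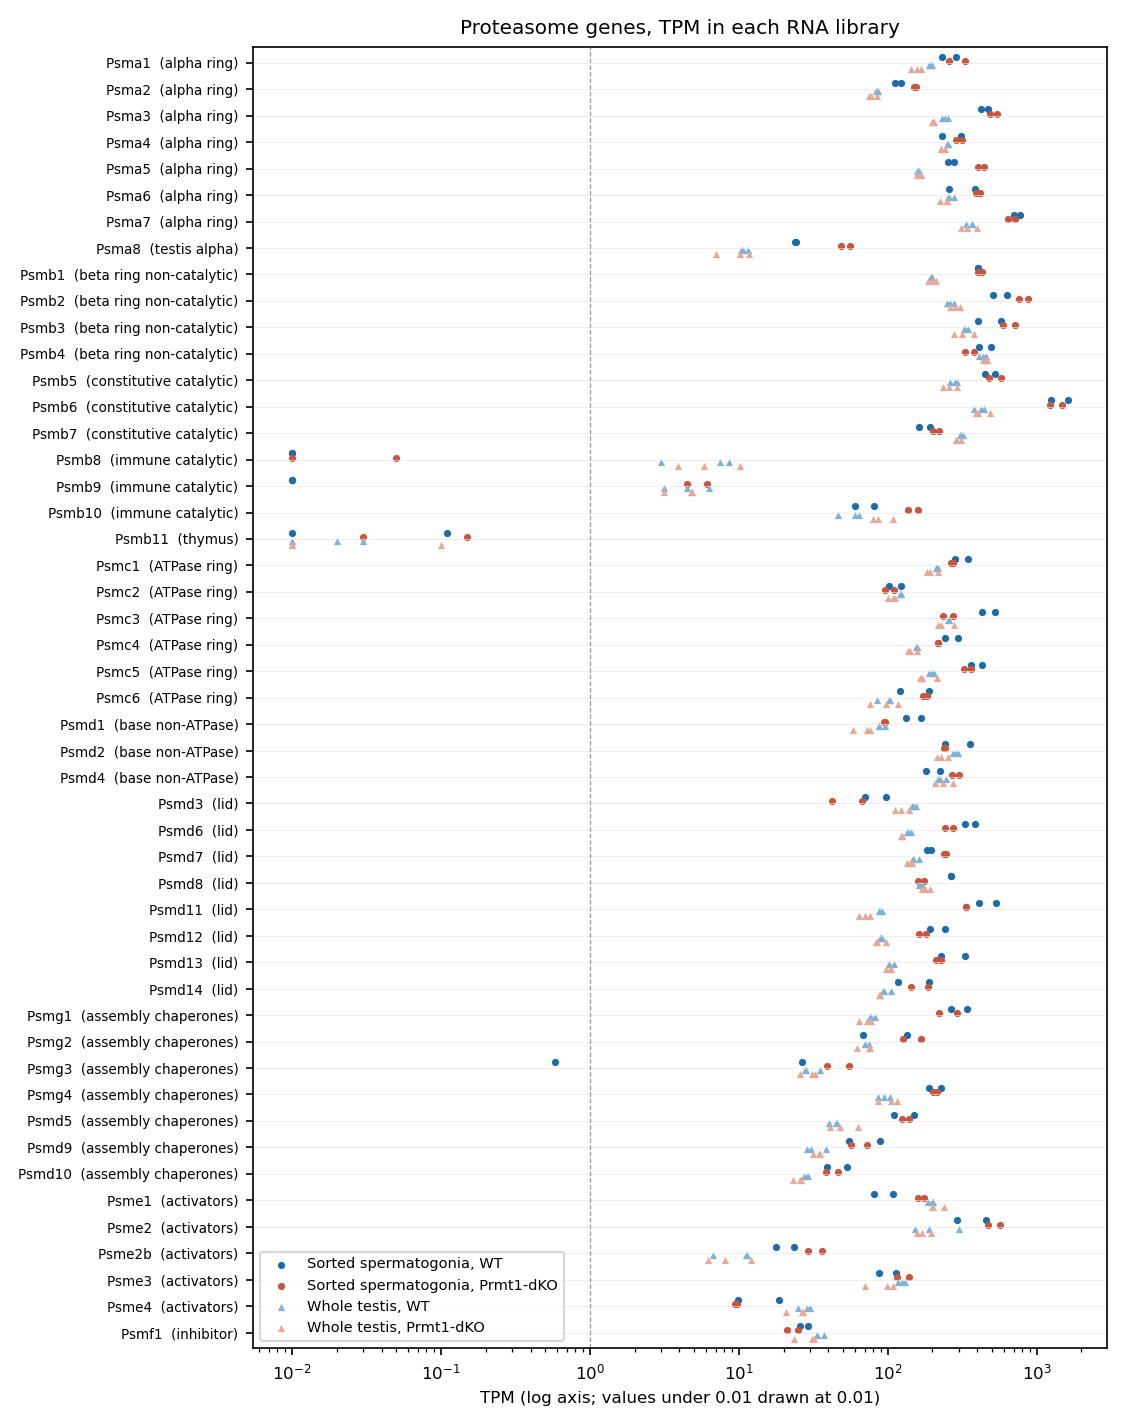
TPM of each of the 49 proteasome genes (rows, with role) in each of the 10 RNA libraries on a log axis, with circles for sorted spermatogonia and triangles for whole testis, blue for WT and red for Prmt1-dKO (paler in testis). Psmb6 is the highest in sorted cells at 1250 and 1630 TPM in WT, and Psmb8, Psmb9 and Psmb11 lie at or near 0 in WT sorted cells.

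Subunits that sit side by side in 1 particle differed several-fold in transcript level. In WT sorted spermatogonia the alpha ring ran from Psma2 at 118 TPM to Psma7 at 744 TPM, a 6.29-fold range, against 4.21-fold in testis. The constitutive catalytic genes ran from Psmb7 at 178 TPM to Psmb6 at 1440 TPM in sorted spermatogonia, an 8.07-fold range, against 1.48-fold in testis. Psmb6 was at 1250 and 1630 TPM in WT and 1470 and 1227 TPM in dKO sorted spermatogonia. Psmb7 was at 163 and 193 TPM in WT and 222 and 202 TPM in dKO. Psmb5 was at 449 and 522 TPM in WT and 575 and 478 TPM in dKO. Psmb6 was thus above Psmb5, and Psmb5 above Psmb7, in each of the 4 sorted libraries, and on TPM the genotypes overlapped for Psmb5 and Psmb6. On CPM both dKO libraries of Psmb5, at 384 and 292, lay above both WT libraries, at 244 and 291. In testis the WT values were 421, 380 and 441 TPM for Psmb6, 285, 261 and 293 for Psmb5, and 307, 310 and 323 for Psmb7. The ATPase ring ranged 2.67-fold in testis and 4.20-fold in sorted spermatogonia, with Psmc3 highest in both. The 8 lid genes ranged 1.87-fold in testis and 5.62-fold in sorted spermatogonia.

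The tissue-restricted subunits were low. Psmb11, the thymus subunit, was at 0.11 and 0 TPM in WT and 0.03 and 0.15 TPM in dKO sorted spermatogonia, at 0.03, 0 and 0.02 TPM in WT testis and at 0, 0.10 and 0 TPM in dKO testis, and did not pass the filter on low counts in either assay. Psma8 was at 24.2 and 23.9 TPM in WT sorted spermatogonia and at 11.5, 10.7 and 10.3 TPM in WT testis. That was 3.41% and 3.07% of the level of its counterpart Psma7 in the sorted libraries, and 2.80% to 3.18% in the testis libraries. Psme4 was at 18.6 and 9.87 TPM in WT sorted spermatogonia and 30.0, 28.8 and 25.2 TPM in WT testis. Psme3, which activates the core in the nucleus, was at 87.2 and 113 TPM and at 125, 131 and 117 TPM. Psme1 and Psme2, the paired activators induced by interferon, were at 109 and 80.7 TPM and at 457 and 291 TPM in WT sorted spermatogonia. In WT testis Psme1 was at 199, 186 and 202 TPM and Psme2 at 303, 152 and 189 TPM. Psme2b is a near-identical copy of Psme2, so reads may be split between the 2 genes and both values are uncertain.

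In whole testis 47 of 48 tested proteasome genes had log2 fold changes within 0.5 of 0, and Psmb10 was the 1 gene that passed. Psmb10, the immune counterpart of Psmb7 (ENSMUSG00000031897, mm10 chromosome 8, 105935735 to 105938444, minus strand), rose in dKO, from 23.7, 18.3 and 23.1 CPM in WT to 32.2, 52.0 and 31.1 CPM in dKO. Every dKO library was above every WT library, with a log2 fold change of 0.82 ± 0.21 (SE; edgeR quasi-likelihood test with Benjamini-Hochberg adjustment over 16554 genes, FDR 0.0267), which is under 2-fold. It was 1 of 48 tested proteasome genes to pass higher, beside 10.6% of all genes, and 0 passed lower, beside 8.51% of all genes. At an unadjusted p under 0.05, 2 proteasome genes (Psme3 and Psmd1) were lower, beside 2591 of the 16554 genes, and DESeq2 and limma-voom also gave 0 lower. In 5 genes every dKO library lay above every WT library, beside 20.9% of all genes tested, and in 5 every dKO library lay below, beside 19.9%. The SE of the 48 fold changes ran from 0.09 to 0.47 with a median of 0.13 on the log2 scale.

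The call on Psmb10 was lost under several alternatives. It missed the threshold with the replicate block (FDR 0.0682) and with both assays in 1 fit (FDR 0.194). Without any 1 of the 3 WT libraries it missed the threshold (FDR 0.0684, 0.109 and 0.0657), and without dKO replicate 2, the library at 52.0 CPM, the log2 fold change was 0.54 with an FDR of 0.00533 and the lid gene Psmd3 also passed, lower, with an FDR of 0.0308. In bulk tissue, fewer cells of a type and less RNA per cell cannot be told apart, and markers of several testis cell types moved with genotype. The summed TPM of 6 Leydig markers was 624 to 724 in WT and 164 to 185 in dKO, that of 8 Sertoli markers was 2355 to 2610 in WT and 1273 to 1496 in dKO, and that of 4 peritubular markers was 806 to 873 in WT and 278 to 492 in dKO. The 10 leukocyte markers summed to 102 to 123 TPM in WT and 111 to 141 TPM in dKO, ranges that overlapped, and of these 10 genes 1, Ptprc, passed (log2 fold change 0.82, FDR 0.0356). The endothelial markers (5 genes) summed to 69.6 to 78.9 TPM in WT and 58.8 to 85.6 TPM in dKO, the germ cell markers to 1461 to 1707 and 1403 to 1526 TPM, and 6 meiotic markers to 207 to 277 and 217 to 279 TPM. Within these lists Lhcgr, against the direction of the Leydig sum, and Pecam1, Dnd1, Sycp3, Dmc1 and Spo11 passed higher in dKO testis, and Kdr and Ddx4, the gene whose promoter drives the Cre, passed lower. The part of these cell types in the Psmb10 result was not tested.

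The other members of the core in testis did not pass. Psmb8 was at 4.42, 1.41 and 3.71 CPM in WT and 3.14, 6.69 and 2.54 CPM in dKO (FDR 0.626), with overlapping groups. Psmb9 was at 3.75, 2.27 and 3.14 CPM in WT and 2.63, 3.66 and 1.84 CPM in dKO (log2 fold change -0.18 ± 0.33). Psmb2, a non-catalytic beta subunit, was at 99.6, 103 and 99.0 CPM in WT and 101, 148 and 122 CPM in dKO (log2 fold change 0.30 ± 0.14, FDR 0.166). The 3 constitutive catalytic genes had log2 fold changes of 0.08 (Psmb5), 0.24 (Psmb6) and 0.09 (Psmb7). In dKO testis they were at 259, 290.3 and 234 TPM (Psmb5), 407, 486 and 394 TPM (Psmb6) and 289, 311 and 287 TPM (Psmb7), overlapping WT. Psma7 was at 366, 337 and 368 TPM in WT and 340.0, 400.4 and 312 TPM in dKO testis (log2 fold change 0.16 ± 0.16). Psma8 did not differ beyond its spread, at 9.03, 8.95 and 8.80 CPM in WT and 8.98, 8.12 and 10.5 CPM in dKO (log2 fold change 0.05 ± 0.16).

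At the negative end in testis were an activator and a scaffold of the base. Psme3 was at 181, 180 and 180 CPM in WT and 159, 133 and 156 CPM in dKO (log2 fold change -0.27 ± 0.11, FDR 0.101). Psmd1 was at 159, 170 and 165 CPM in WT and 143, 132 and 144 CPM in dKO (log2 fold change -0.24 ± 0.10, FDR 0.117). Neither passed, although in both genes every dKO library was below every WT library. The other activators did not pass, with log2 fold changes of 0.29 ± 0.15 for Psme1, 0.15 ± 0.18 for Psme2 and -0.06 ± 0.10 for Psme4. In dKO testis Psme1 was at 198, 240.4 and 202 TPM, Psme2 at 171, 195 and 156 TPM and Psme4 at 27.1, 20.9 and 26.6 TPM, so that all 3 overlapped their WT values. The median over the 48 genes was 0.08, beside 0.02 over all genes tested. The sign of so small a shift depended on the scale: on mean TPM, which carries no scaling between libraries beyond the total, the median log2 ratio was -0.10 with 34 of 48 genes lower in dKO, beside -0.16 over all genes with at least 1 TPM in WT.

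**Figure D2:**
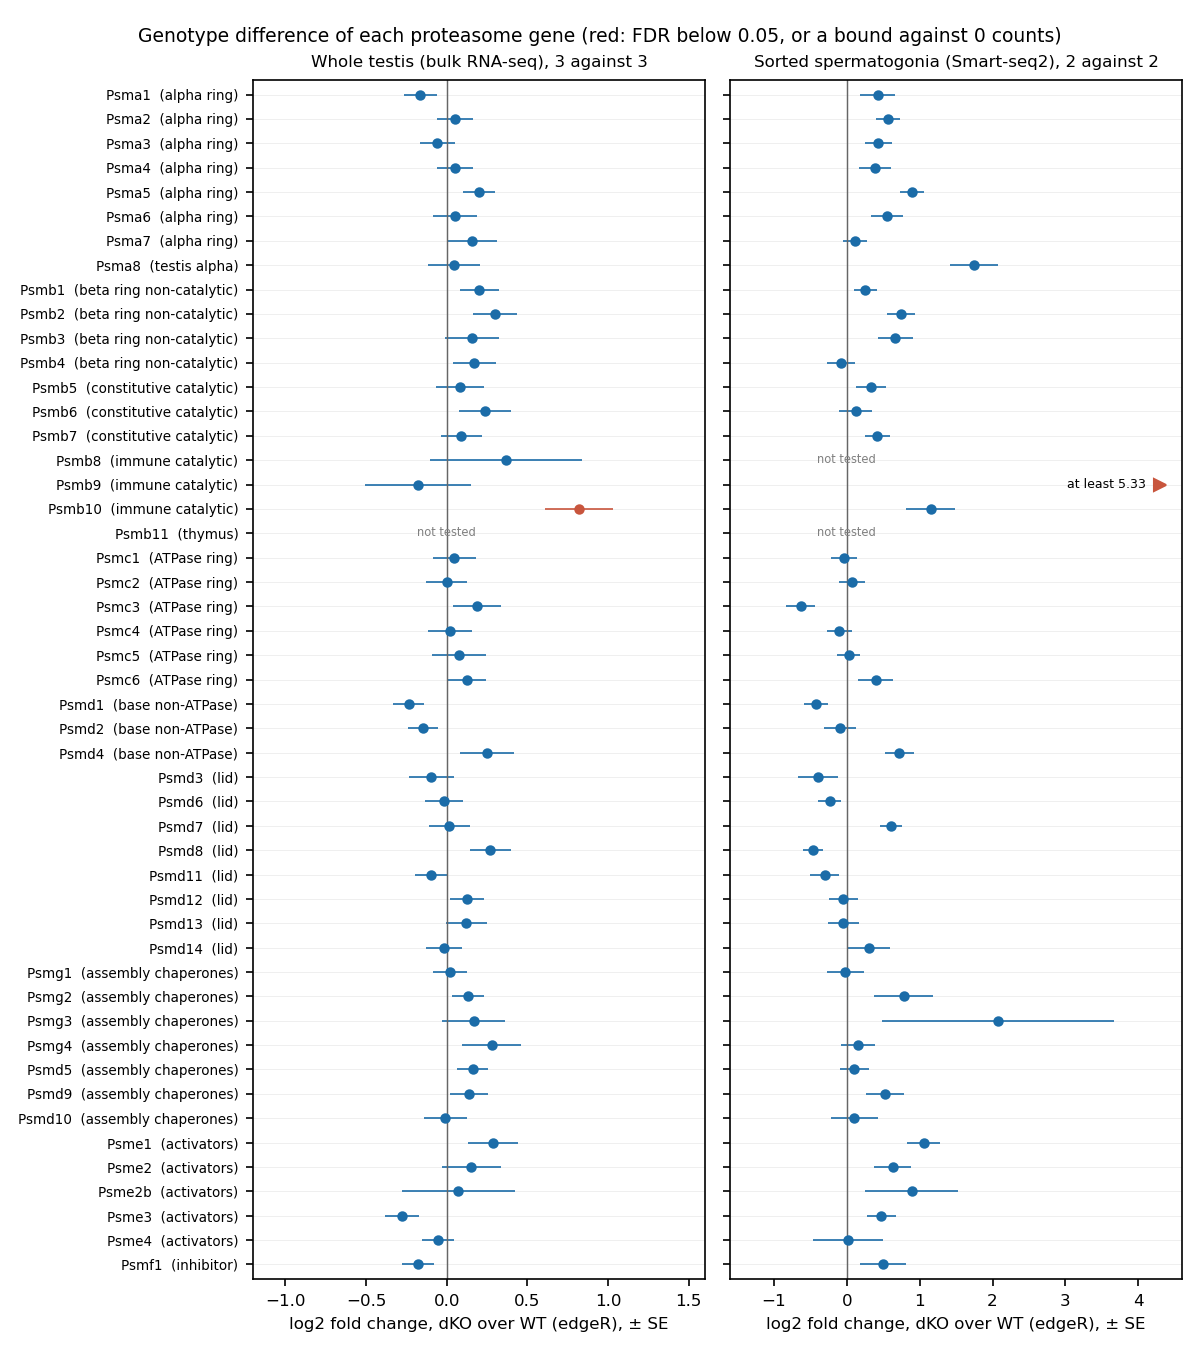
Log2 fold change (dKO over WT, edgeR, with SE) of each proteasome gene in whole testis (left) and in sorted spermatogonia (right). In testis the points lie within 0.5 of 0 apart from Psmb10 at 0.82, drawn in red, and in sorted spermatogonia the alpha ring and activators lie right of 0 while lid genes lie on both sides, with Psmb9 drawn as a lower bound because it had 0 counts in WT.

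In sorted spermatogonia the changes were larger, but with 2 libraries against 2 none passed the adjusted threshold. The edgeR test gave 0 of 47 proteasome genes higher and 0 lower at an FDR below 0.05, as for all 16443 genes (0.0% higher and 0.0% lower). At an unadjusted p under 0.05, 10 proteasome genes were higher and 2 lower, beside 16.4% and 7.35% of all genes. DESeq2 gave 9 higher and 2 lower, beside 1471 and 997 of 16901 genes. With limma-voom 2 were higher (Psmb9 and Psma8) and 0 lower, beside 1578 and 175 of 16443 genes. Psmb9 entered these counts of higher genes through its dKO libraries alone, since it had 0 counts in WT, so it had to differ and lends them no support. Without WT replicate 1 edgeR gave 16 higher and 3 lower, beside 6127 and 3064 of 17942 genes. Without WT replicate 2 it gave 17 higher and 2 lower, beside 4907 and 2932 of 18164 genes, with the lone WT library assumed to vary like the dKO libraries. Without either dKO library it gave 0. In 25 of the 47 genes both dKO libraries were above both WT libraries, beside 36.3% of all genes, and in 4 of 47 both were below, beside 20.3%. The median log2 fold change was 0.34, beside 0.15 over all genes. On mean TPM the median was 0.05, beside -0.40 over all genes, so a member's direction near 0 depended on the scale here too. The SE ran from 0.14 to 1.59 with a median of 0.21.

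The germ cell subunit Psma8 (ENSMUSG00000036743) stood higher in both sorted dKO libraries than in both WT libraries. Psma8 was at 19.7 and 15.5 CPM in WT and 56.5 and 61.4 CPM in dKO, a log2 fold change of 1.74 ± 0.33 (FDR 0.0774). On TPM it was at 48.5 and 55.7 in dKO against 24.2 and 23.9 in WT, so the direction held on both scales, and it was 6.79% and 8.63% of Psma7 in dKO. Psma7 itself was at 393 and 432 CPM in WT and 490 and 403 CPM in dKO (log2 fold change 0.11 ± 0.17), with overlapping groups. The genotype difference of Psma8 was larger in sorted spermatogonia than in testis by 1.78 ± 0.34 on the log2 scale (edgeR interaction test, FDR 0.00667). That test fits the spread of both assays together. Fitted within each assay, the coefficient of variation between libraries was 0.767 in sorted spermatogonia and 0.155 in testis. The interaction FDR can thus understate the spread between sorted libraries. The summed TPM of 6 meiotic markers was 807 and 694 in WT and 421 and 459 in dKO sorted spermatogonia, lower in the libraries where Psma8 was higher. On CPM, Stra8 and Dmc1 of this list overlapped between genotypes. Of the 6 markers 5 were tested, and 0 passed by edgeR.

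Of the 3 immune catalytic genes, 0 passed by edgeR in sorted spermatogonia. Psmb9 had 0 counts in both WT libraries and 108 in the 2 dKO libraries together (0 CPM in both WT libraries, 3.28 and 3.77 CPM in dKO), at least 40.1-fold higher against a floor of 3 counts over the WT group. Psmb9 differed in its genotype difference between sorted spermatogonia and testis (interaction FDR 0.000845). Psmb8 had 0 counts in WT and 1 count in dKO, so a difference was not detectable at this depth. Psmb10 was at 38.7 and 23.9 CPM in WT and 69.1 and 69.8 CPM in dKO (log2 fold change 1.15 ± 0.34, FDR 0.129). Psme1 was at 75.0 and 56.7 CPM in WT and 148 and 125 CPM in dKO (log2 fold change 1.05 ± 0.23, FDR 0.0774), and Psme2 at 211 and 146 CPM in WT and 307 and 244 CPM in dKO (log2 fold change 0.63 ± 0.25, FDR 0.227).

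Leukocyte markers moved with these genes. In the 2 WT sorted libraries 9 and 10 of the 10 markers were listed at 0, and in the 2 dKO libraries 2 and 1 were. Of the defining markers, Ptprc was at 2.26 and 0.17 TPM, Cd68 at 6.00 and 7.11 TPM and Tyrobp at 14.4 and 17.2 TPM in dKO, while Adgre1 was listed at 0 in all 4. The 5 endothelial markers were listed at 0 in both WT libraries and summed to 1.09 and 1.04 TPM in dKO. The part of these cells in the Psmb9, Psmb10, Psme1 and Psme2 values was not tested. Tap1, which shares its promoter region with Psmb9, was at 0.16 TPM in 1 dKO library and listed at 0 in the other 3 sorted libraries.

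**Figure D3:**
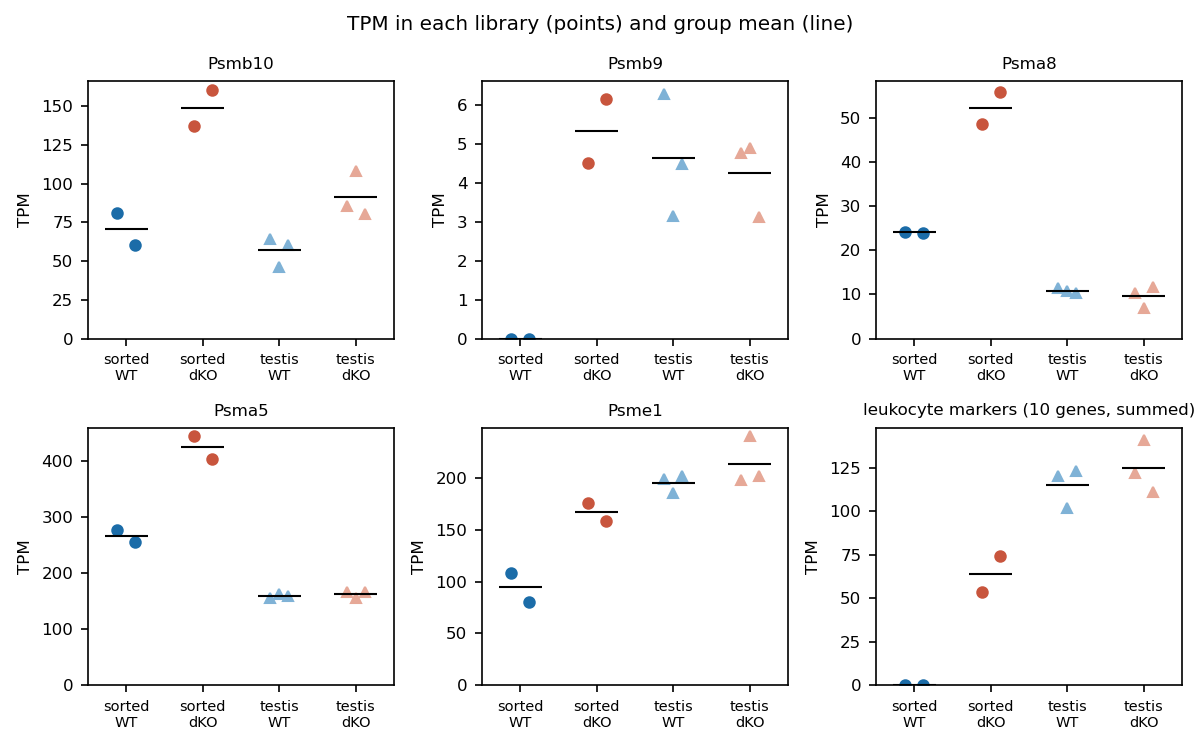
TPM of Psmb10, Psmb9, Psma8, Psma5 and Psme1 and the summed TPM of 10 leukocyte markers in each library, with a line at the group mean. Psmb9 and the leukocyte markers are at or near 0 in both sorted WT libraries and present in both sorted dKO libraries, and Psma8 is near 24 TPM in sorted WT and near 50 TPM in sorted dKO with no such gap in testis.

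In sorted spermatogonia the fitted changes were described by the place of each subunit in the particle, with no test between the groups. All 7 alpha ring genes had log2 fold changes above 0, with a median of 0.43 and a range of 0.11 to 0.90, and in 6 of them both dKO libraries were above both WT libraries on CPM, beside 36.3% of all genes. On mean TPM 6 of the 7 were higher in dKO and Psma7 was lower, at 715 and 646 TPM against 710 and 778 TPM. Psma5 was at 228 and 211 CPM in WT and 448 and 367 CPM in dKO (log2 fold change 0.90 ± 0.17, FDR 0.0774). In testis Psma5 was at 97.9, 101 and 104 CPM in WT and 107, 124 and 117 CPM in dKO, and its difference between assays was 0.78 ± 0.17 (interaction FDR 0.0141). The 6 ATPases had a median of -0.01 with 3 above and 3 below 0, and 6 of the 8 lid genes had log2 fold changes below 0, with a median of -0.14. On mean TPM 5 of the 6 ATPases and 6 of the 8 lid genes were lower in dKO. Psmc3, an ATPase, was at 462 and 557 CPM in WT and 370 and 287 CPM in dKO (log2 fold change -0.63 ± 0.20, FDR 0.145). Psmd8, a lid subunit, was at 253 and 250.5 CPM in WT and 185 and 182 CPM in dKO (log2 fold change -0.46 ± 0.14, FDR 0.133). Psmd1 was at 285 and 335 CPM in WT and 248 and 216 CPM in dKO (log2 fold change -0.42 ± 0.17, FDR 0.232). Psmd7, the lid partner of Psmd14, had a positive value, at 178 and 205 CPM in WT and 301 and 284 CPM in dKO (log2 fold change 0.61 ± 0.15, FDR 0.0910), as did Psmd4, the ubiquitin receptor of the base, at 0.72 ± 0.20 (FDR 0.111), a gene chosen after its values were seen.

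The summed TPM of the 14 genes of the core divided by that of the 17 genes of the regulatory particle was 1.51 and 1.42 in WT sorted spermatogonia and 2.12 and 1.82 in dKO. In testis the ratio was 1.44, 1.41 and 1.45 in WT and 1.50, 1.53 and 1.50 in dKO. The dKO libraries were above the WT libraries in both preparations, by far less in testis. ATPase transcripts summed to 1680 and 1773 TPM in WT and 1369 and 1367 TPM in dKO sorted spermatogonia, and lid transcripts to 1902 and 2139 TPM in WT and 1560 and 1681 TPM in dKO. The 4 non-catalytic beta genes summed to 2016 and 1813 TPM in WT and 2394 and 2088 TPM in dKO. The total over all 49 genes overlapped between genotypes, at 12078 and 12817 TPM in WT and 13199 and 12184 TPM in dKO. Immune catalytic transcripts were 4.36% and 2.58% of the constitutive ones in WT and 6.27% and 8.73% in dKO sorted spermatogonia. In testis they were 5.53% to 7.80% in WT and 9.54% to 11.4% in dKO. Psmb10 made up nearly the whole immune sum in sorted spermatogonia, where Psmb9 was at 0 TPM in WT and at 4.50 and 6.15 TPM in dKO and Psmb8 at 0.05 TPM or less, and in testis Psmb10 was the 1 immune catalytic gene that passed. These ratios are sums over chosen genes and were not tested.

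**Figure D4:**
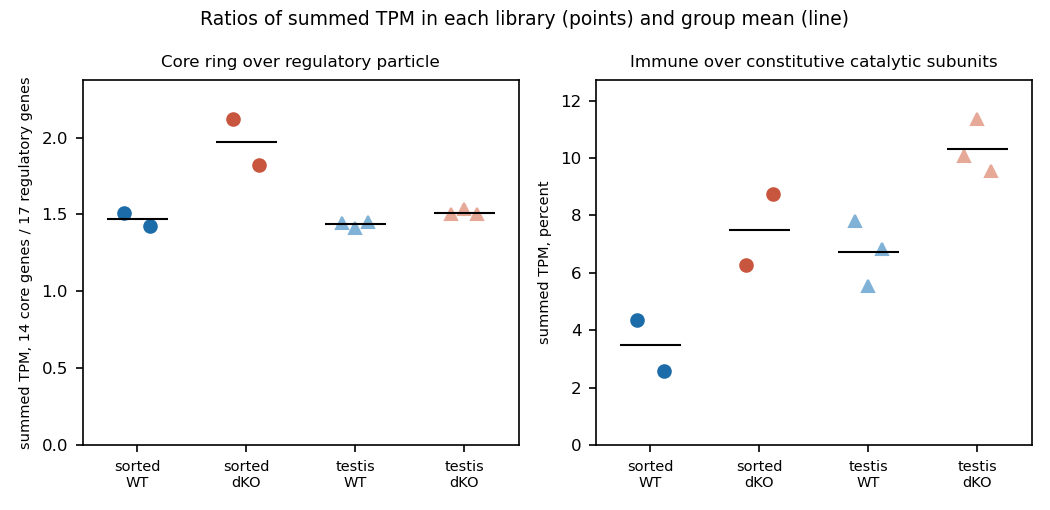
Left, summed TPM of 14 core genes over 17 regulatory particle genes; right, summed TPM of the immune catalytic genes in percent of the constitutive ones; 1 point per library and a line at the group mean. Both dKO groups lie above their WT groups in both panels, the immune sum is mostly Psmb10, and the core ratio moves from 1.51 and 1.42 to 2.12 and 1.82 in sorted spermatogonia.

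The genotype difference itself differed between sorted spermatogonia and testis in 7 of 48 proteasome genes. It was higher in sorted spermatogonia for 6 (Psmb9, Psma8, Psma5, Psme3, Psmf1 and Psmd7), beside 14.7% of all 19608 genes tested, and lower for 1 (Psmd8), beside 4.24%. The share for the higher genes is close to that of all genes. The number of calls over all genes fell when a testis library was left out. It was 2043 higher and 547 lower of 19570 genes without testis WT replicate 1, against 2891 and 831 with all libraries. Without testis WT replicate 1, 2 or 3 the count of 7 was 2, 2 and 3, and without testis dKO replicate 1 or 3 it was 3. Without sorted WT replicate 1 it was 18, beside 6455 higher and 2431 lower of 21394 genes, and without sorted WT replicate 2 it was 12, beside 5280 and 2354 of 21486. Psme3 was at 125 and 165 CPM in WT and 206 and 198 CPM in dKO sorted spermatogonia, and its difference between assays was 0.84 ± 0.20 (FDR 0.0198). Psmf1, the inhibitor PI31, was at 31.3 and 29.0 CPM in WT and 42.9 and 42.0 CPM in dKO sorted spermatogonia. In testis Psmf1 was at 44.2, 45.1 and 44.2 CPM in WT and 39.2, 39.2 and 39.6 CPM in dKO, so the interaction was 0.76 ± 0.21 (FDR 0.0367). On TPM, Psmf1 was at 29.0 and 25.7 in WT and 25.1 and 21.0 in dKO sorted spermatogonia, the opposite direction. Psmd7 was at 125, 124 and 144 CPM in WT testis and 120, 153 and 125 CPM in dKO testis (interaction 0.68 ± 0.19, FDR 0.0404). Psmd8 was at 116, 118 and 129 CPM in WT testis and 130, 171 and 136 CPM in dKO testis (interaction -0.64 ± 0.19, FDR 0.0440). All 7 values rest on the same 4 sorted libraries. Every interaction FDR given here comes from a fit of both assays together, so it can understate the spread between sorted libraries.

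Among the assembly chaperones, Psmg3 had the largest fitted change in sorted spermatogonia, 2.08 ± 1.59 (FDR 0.543). It was at 12.5 and 0.31 CPM in WT and 23.6 and 30.7 CPM in dKO, so WT replicate 2 lay far below the other 3 libraries. Without WT replicate 2, the library at 0.31 CPM, the log2 fold change was 1.13 (FDR 0.014), and without WT replicate 1 it was 6.41 (FDR 2.16e-11). In testis Psmg3 was at 11.4, 11.6 and 15.4 CPM in WT and 11.3, 17.5 and 14.4 CPM in dKO. Psme4 was at 49.7 and 22.9 CPM in WT and 35.2 and 37.9 CPM in dKO sorted spermatogonia (log2 fold change 0.01 ± 0.48).

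The partners of the proteasome, a list of 28 genes for its maturation, shuttle receptors, ubiquitin and transcription factors, had few calls. In testis 2 of 28 passed lower. The ubiquitin gene Rps27a rose (log2 fold change 0.64 ± 0.15, FDR 0.0199). Nfe2l1, the factor that restores proteasome gene expression, fell from 348, 352 and 351 CPM to 284, 265 and 240 CPM (log2 fold change -0.41 ± 0.10, FDR 0.0233), and the shuttle receptor Ubqln2 fell by 0.67 on the log2 scale (FDR 0.00829). In sorted spermatogonia Nfe2l1 was at 92.1 and 73.3 CPM in WT and 119 and 120 CPM in dKO, and its difference between assays was 1.03 ± 0.18 (interaction FDR 0.00476). Ngly1, the glycanase that activates Nfe2l1, was at 81.2 and 64.4 CPM in WT and 19.1 and 28.2 CPM in dKO sorted spermatogonia and near 28 CPM in testis of both genotypes (interaction -1.63 ± 0.31, FDR 0.00740). Nfe2l2, the maturation factor Pomp and the receptor Adrm1 had log2 fold changes of 0.03, 0.11 and -0.01 in testis and 0.34, 0.05 and -0.35 in sorted spermatogonia, and none passed.

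Of 12 antigen processing genes, 3 passed higher in testis. The MHC class I gene H2-K1 (0.88 ± 0.20, FDR 0.0158), the transporter subunit Tap2 (0.73 ± 0.16, FDR 0.0162) and the interferon response factor Irf1 (0.56 ± 0.12, FDR 0.0154) rose. Tap1 had a log2 fold change of -0.06 ± 0.19. In sorted spermatogonia H2-K1 was at 171 and 75.6 CPM in WT and 24.0 and 29.5 CPM in dKO, and the genotype difference of H2-K1 was lower there than in testis by 3.00 ± 0.50 (interaction FDR 0.00387). The peptidase gene Erap1 differed between assays by 1.87 (interaction FDR 0.00359). Psmb10 and H2-K1 thus had higher values in dKO testis, while in dKO sorted spermatogonia Psmb10 was higher and H2-K1 lower.

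At promoters, H3K4me3 was found at most proteasome genes at both ages, and more of them had H3K27ac and arginine marks at P14 than at P7. A gene was counted when a peak summit lay within 3000 bp of any of its start sites in at least 2 replicate lists. Among WT lists at P7, H3K4me3, the mark of active starts, was found at 45 of 49 genes (91.8%), beside 60.7% of all protein-coding genes and 88.8% of the 13712 genes at 1 TPM or more in WT testis. H3K27ac, the mark of active regulatory elements, was found at 32 (65.3%), beside 31.0% and 47.5% of the same 2 sets. At P14 H3K4me3 was found at 46 of 49, beside 63.1% and 89.9%, and H3K27ac at 46 of 49 (93.9%), beside 48.9% and 73.2%. The genes without H3K4me3 at P14 were Psmb8, Psmb11 and Psme2b. Psma8 was the 1 gene with H3K4me3 at P14 and not at P7, where 1 of 2 lists held it.

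The asymmetric arginine marks and H4R3me1 were scarce at P7. H4R3me2a, the H4 mark that Prmt1 deposits, was found at 8 of 49 genes, beside 15.3% of all protein-coding genes. H3R2me2a was found at 7, beside 11.0%, H3R8me2a at 2 (Psma2 and Psme2), beside 9.71%, and H4R3me1 at 6, beside 10.8%. At P14 H4R3me2a was found at 38, beside 49.0%, H3R2me2a at 37, beside 51.3%, H3R8me2a at 28, beside 33%, and H4R3me1 at 27, beside 29.9%. The rise was shared by the background, and the P14 lists were longer (29030 to 55908 peaks over these 4 marks, against 15361 to 24193 at P7). With each list cut to the shortest list of its mark, 30 genes had H4R3me2a at P14, beside 30.7% of all genes, and 8 had it at P7, beside 14.7%. Between the ages, 30 genes gained H4R3me2a and 0 lost it, beside 7836 gained and 448 lost over all 21951 protein-coding genes. H3R2me2a was gained at 31 and lost at 1 (Psmb8), beside 9057 and 208. The P7 summits counted for Psmb8 lay at -2872 and 2718 bp from a start, so the 2 lists held different sites.

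The number of marks differed between proteasome genes. At P7 the median gene had 2 of the 7 marks, and at P14 it had 6. At P14 13 genes had all 7 (Psma1, Psma2, Psma3, Psmb1, Psmb2, Psmd3, Psmd6, Psmd11, Psmd13, Psmd14, Psmg2, Psme2 and Psme4). Psma2 and Psme2 had 6 marks already at P7. At the low end at P14, Psma8, Psmb4, Psmb6, Psmb8, Psmb10, Psmd8 and Psmg3 had 2 marks each, Psmb11 had 1 and Psme2b had 0. Both marks of Psmb8 lay far from its start, with H4R3me2a summits at 2724 to 2731 bp and H3K27ac summits at 2819 to 2953 bp. Psmb6, the most abundant member in sorted spermatogonia, and Psmb10 carried H3K4me3 and H3K27ac at P14 but none of the arginine marks in 2 lists. Psmb9 carried 6 of 7 marks at P14, at the start it shares with Tap1. Summits lay close to the start: the median distance was 137 bp for H3K4me3 at P14 and 123 bp for H4R3me2a at P14, and 97.8% and 90.8% of summits lay within 500 bp. Fold enrichment over background, as the peak caller gave it, had a median of 7.83 for H3K4me3 and 3.73 for H4R3me2a at these genes at P14.

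**Figure D5:**
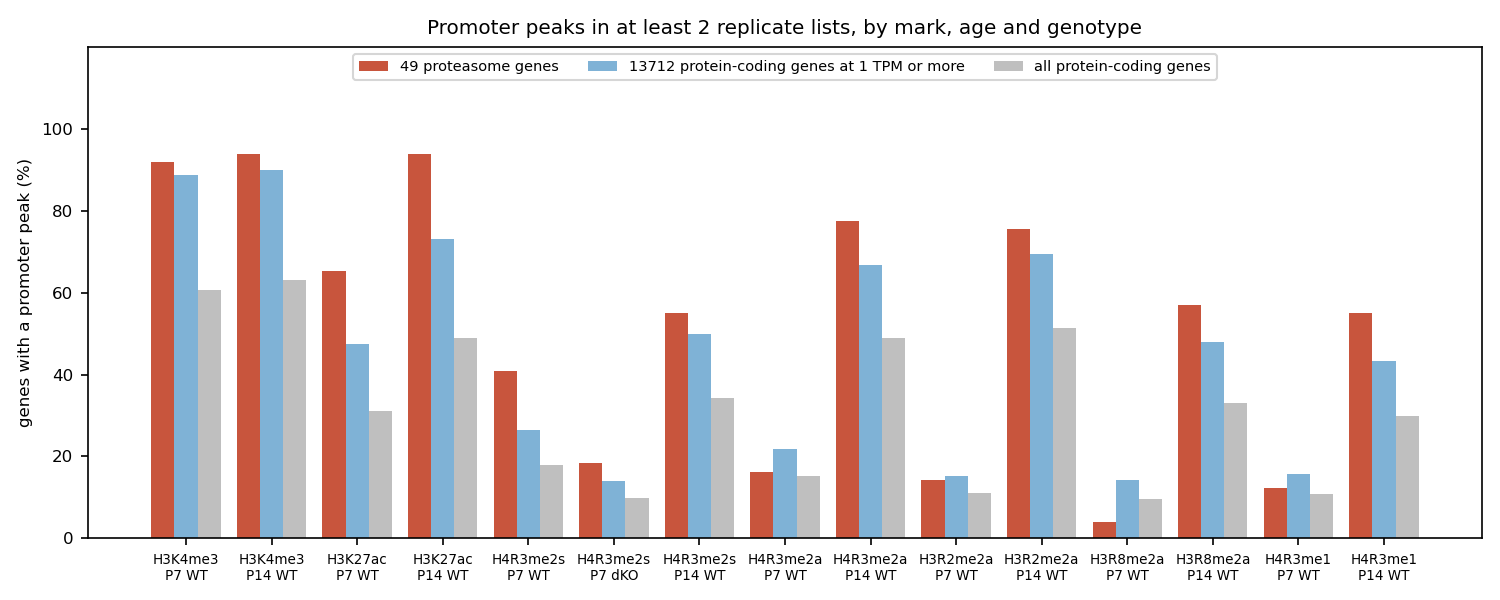
Percentage of genes with a promoter peak in at least 2 replicate lists for each mark, age and genotype, for the 49 proteasome genes (red), protein-coding genes at 1 TPM or more in WT testis (blue) and all protein-coding genes (grey). The red bars exceed the blue ones for both active marks and for every mark at P14, and lie below them for the asymmetric marks and H4R3me1 at P7.

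H4R3me2s, the symmetric mark of the same residue, was the 1 mark measured in both genotypes. In WT at P7 it was found at 20 of 49 proteasome genes (40.8%). That is beside 17.8% of all protein-coding genes and 26.5% of genes at 1 TPM or more in WT testis. In dKO it was found at 9 (18.4%), beside 9.82% and 13.9%. Single WT lists held it at 34 and 24 genes and single dKO lists at 20 and 18, so the groups did not overlap. Over all protein-coding genes single WT lists held 7257 and 7397 and single dKO lists 6030 and 5062. The WT lists held 19981 and 36145 peaks and the dKO lists 33941 and 28221, and the shortest list held the most proteasome genes. Of the 20 genes, 5 kept the mark in dKO (Psmb1, Psmb9, Psmc6, Psmd2 and Psmd11), 15 were without it, and 4 had it in dKO only (Psmb5, Psmc5, Psmd3 and Psmg4). Over all protein-coding genes 997 of 3904 kept it, a share close to that of the proteasome genes, and 1159 had it in dKO only. The 15 included Psma1, Psma2 and Psma3 of the alpha ring, Psme1 and Psme2. With lists of equal length the counts were 14 and 5, beside 13.0% and 4.97% of all genes. At P14 in WT the mark was found at 27 genes, beside 34.2%. Neither Psma8 nor Psmb10 carried H4R3me2s in 2 lists in WT or dKO. Read depth is not given with the peak lists, so no interval was computed.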

How the data were processed

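The members and gene lists were chosen with earlier results of these data known. Per the labels and the study's methods, the authors trimmed reads with fastp 0.23.2, aligned RNA reads to mm10 with STAR and ran RSEM, with no RSEM version or annotation named in what was read here (not given in the sources used here). They deposited, per gene and library, expected counts, TPM and FPKM. The authors called CUT&Tag peaks per sample with MACS2 2.1.0, and the deposited lists hold a fold enrichment ratio and −log10 p and q for each peak; an aligner or control for them was not found in the labels or methods. H3K4me3 lists were thresholded on q and the others on p, so marks are compared with their own background.

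Of 55401 gene IDs, 55141 matched GENCODE vM21. Expected counts were rounded and tested with edgeR 4.0.16 (TMM scaling, filterByExpr, quasi-likelihood test, Benjamini-Hochberg adjustment) in R 4.3.3, in a separate fit per assay, and in 1 fit of 10 libraries for the interaction. Passing means an FDR below 0.05. DESeq2 1.42.0, limma-voom (limma 3.58.1), other scaling, no filter, a replicate block and leaving out each library were alternatives. CPM values are TMM scaled. Log2 ratios of mean TPM used an offset of 0.1. These ratios, and a median with Psmb9 at its lower bound, were alternatives chosen after seeing the data. A promoter peak needed a summit within 3000 bp of a start in at least 2 lists. The scripts were tested on simulated data. Depth was 12396317 to 18547078 counts per library. Intervals and floors cover counting error only.

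Values in every library were given for members that passed a test, the 3 largest and 3 smallest fold changes per assay, the catalytic, immune, thymus and testis subunits, Psma7 and the activators Psme1 to Psme4, with Prmt1 as the check of the labels. Partner and antigen processing genes were named where they passed, except for some that are not reported here, and Nfe2l1, Nfe2l2, Pomp, Adrm1, Tap1 and Tap2 in any case. Germ cell, Sertoli, Leydig, peritubular, endothelial, leukocyte and meiotic markers were summed as TPM.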

Additional observations from a re-analysis of the deposited data

Results flagged for a closer look

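These 7 genes were flagged because their genotype difference in sorted spermatogonia differed from that in whole testis in the edgeR interaction test at an FDR below 0.05. The difference, on the log2 scale, was 9.01 for Psmb9, 1.78 for Psma8, 0.78 for Psma5, 0.84 for Psme3, 0.76 for Psmf1, 0.68 for Psmd7 and -0.64 for Psmd8. The value for Psmb9 is fitted against 0 counts in WT sorted spermatogonia, depends on the prior count and is no bound. Psma8 and Psmb9 passed without any single library in turn, while the 5 others each lost the call without at least 1 library. No group held the 4 or more libraries that a test for a library far from the others needs. The interaction test fits the spread of both assays together, so its FDR values can understate that of the sorted libraries.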

How the results depend on the processing

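The numbers 1 to 3 did not pair the libraries (correlations of same-numbered deviations 0.083, -0.22 and -0.12 in testis and 0.018 in sorted spermatogonia). With the replicate block, 0 proteasome genes passed in testis (Psmb10 0.79, FDR 0.0682) and 0 in sorted spermatogonia. With both assays in 1 fit, 0 passed in testis (Psmb10 0.81, FDR 0.194) and 13 in sorted spermatogonia, 4 of them at 2-fold, beside 4099 higher and 1341 lower of 19608 genes there. In sorted spermatogonia DESeq2 gave 11 (4 at 2-fold) and limma-voom 2 (2 at 2-fold). The median log2 fold change became -0.1 in testis and 0.05 in sorted spermatogonia on mean TPM (with Psmb9 at its bound the median stayed 0.34). Without a filter the interaction gave 4 genes, beside 2503 higher and 632 lower of 32278 genes. Psmd7 in testis turned to -0.005 (DESeq2) and -0.01 (no filter), and Psme4 in sorted spermatogonia to -0.03 (DESeq2 and RLE size factors). Summed TPM over the 49 genes became 11760 (rescaled by TMM) and 10547 (FPKM) in sorted WT, 13504 and 11192 in sorted dKO, and on FPKM 4780 in WT and 5277 in dKO testis. The causes were not tested.

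With peaks of q at most 0.01, promoter counts at P7 became 0 for H4R3me2a, H3R2me2a, H3R8me2a, H4R3me1 and dKO H4R3me2s, 18 for H3K27ac and 4 for WT H4R3me2s, and at P14 25 for H4R3me2a, 10 for H3R8me2a, 13 for H4R3me1 and 8 for H4R3me2s. With a peak in any list they became 22 for H4R3me2a, 24 for H3R2me2a, 19 for H3R8me2a, 22 for H4R3me1, 38 for WT and 29 for dKO H4R3me2s at P7, beside 40.0%, 37.5%, 32.9%, 36.8%, 49.0% and 40.7% of all protein-coding genes. At equal list length they became 5 for dKO H4R3me2s at P7 and 17 for H3R8me2a at P14, beside 4.97% and 20.8%.

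Leaving out 1 library at a time, the count passing ran from 0 to 2 in testis, 0 to 19 in sorted spermatogonia (0 to 6 at 2-fold, median 0.18 to 0.48) and 2 to 18 for the interaction. Testis log2 fold changes that changed sign ran from -0.16 to 0.66 (Psmb8), -0.45 to 0.04 (Psmb9), -0.06 to 0.13 (Psma8), -0.1 to 0.07 (Psmd7), -0.1 to 0.16 (Psmb5), -0.04 to 0.16 (Psmb7), -0.05 to 0.24 (Psma7) and -0.07 to 0.27 (Psme2). In sorted spermatogonia they ran from -0.05 to 0.37 (Psmb6), -0.01 to 0.23 (Psma7) and -0.42 to 0.69 (Psme4). Leaving out 1 list, a single remaining list then sufficed in groups of 2. Promoter counts are given here with the shares of all protein-coding genes in brackets. At P7 they were 2 to 5 for H4R3me2a (7.79% to 8.22%), 15 to 16 for H3R2me2a (24.1% to 24.3%) and 7 to 14 for H3R8me2a (21.1% to 21.5%). H4R3me1 had 13 to 15 (22.3% to 25.3%), WT H4R3me2s 24 to 34 (33.1% to 33.7%) and dKO H4R3me2s 18 to 20 (23.1% to 27.5%). At P14 H4R3me2s had 16 to 22 (20.1% to 24.3%). Over the other alternatives, 191 values of named genes kept their direction and side of the threshold, 19 newly passed and 2 no longer passed. Psmb11 in both assays and Psmb8 in sorted spermatogonia had too few counts to be tested.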
